A study of Mus musculus with 9 samples.

Results

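Livers of mice after intermittent fasting (IF) were compared with livers of fed mice (FED) by RNA sequencing. The comparison rests on 6 of the 9 libraries of the series, 3 of FED and 3 of IF mice, and on the genes with a mean of at least 1 TPM (transcript abundance normalized for transcript length and library total) over these 6 libraries. Of 5608 genes listed in the table, 4583 met this limit and 1025 did not. Genes with a mean below 1 TPM in either group could meet it only through the other group, where they were higher. The genes nearest the limit were Zfp142, Mtr and Clca3a1 inside it and Jade3 at 0.998 TPM and Syne3 at 0.997 TPM outside it.

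All mice were C57BL/6 J wild type and were sacrificed on day 5. FED mice ate standard diet ad libitum. Food was withheld from IF mice for 24 h on day 1 and again on day 4, with ad libitum refeeding between, so that their livers were taken directly after the second fast and time since the last meal cannot be told apart from the repeated regimen. The third group received a fasting-mimicking diet (FMD) for 3 days and is used only where IF and FMD are set side by side. The age and sex of the sequenced mice are not given in the sources used here. Each group was 3 mice, and in whole liver a smaller number of cells of a type and less RNA per cell cannot be told apart.

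During a fast the liver changes from storing energy to releasing it. Fatty acids from adipose tissue are oxidized in mitochondria and peroxisomes and partly converted to ketone bodies, glycerol and amino acids are turned into glucose, and the synthesis of fatty acids and sterols is lowered. Falling insulin and rising glucagon and glucocorticoids, together with the fatty acid sensor PPARα, are the best known signals behind this change.

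Values below are scaled TPM, in the order of replicates 1, 2 and 3. The scale factor of a library was the median, over genes, of its TPM relative to the geometric mean of the libraries. Fold changes are differences of log2(TPM + 1), IF minus FED (log2FC), with their standard error after ±, so changes of genes near 1 TPM are understated. Adjusted p values are from limma with Benjamini-Hochberg adjustment over all 4583 genes. Genes that passed an adjusted p of 0.05 and changed over 1.5-fold are called differentially expressed, or called for short. Library depth is unknown, because TPM keeps none.

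The scaling bears on every count of genes that fell. The listed genes summed to between 26.33 and 29.3% of the TPM total in FED livers and to between 32.88 and 34.86% in IF livers, and before scaling the median log2 fold change of all genes was 0.24. With scaling, 396 genes (8.64%) were called, of which 199 (4.34%) were higher and 197 (4.30%) lower in the IF group. These shares of all genes are the background for the count of each list below. Without it 612 were called, 519 (11.3%) higher and 93 (2.03%) lower. All 199 genes called higher with scaling were also called higher without it, whereas 93 of the 197 called lower were also called lower. A fall is therefore a fall relative to the other listed genes. More than 2-fold changes were seen for 71 higher and 67 lower genes. In 395 of the 396 called genes the FED and IF libraries did not overlap, beside 46.5% of all genes tested, and the exception was Cd53. For the called genes described below, the 3 IF values thus lay all above or all below the 3 FED values. Euclidean distances over all genes were 12.7 to 18.2 among FED, 13.8 to 14.2 among IF and 26.6 to 33.6 between FED and IF libraries. FED replicate 1 lay farthest within its group, at 18.2 from replicate 2 and 15.3 from replicate 3. The liver origin could not be checked against the hepatocyte markers chosen for it, since 0 of these 20 genes are in the table, but Apoe and Apoc1, apolipoproteins made in quantity by liver, had the highest levels, between 18876 and 24515 TPM and between 12949 and 14558 TPM.

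**Figure D1:**
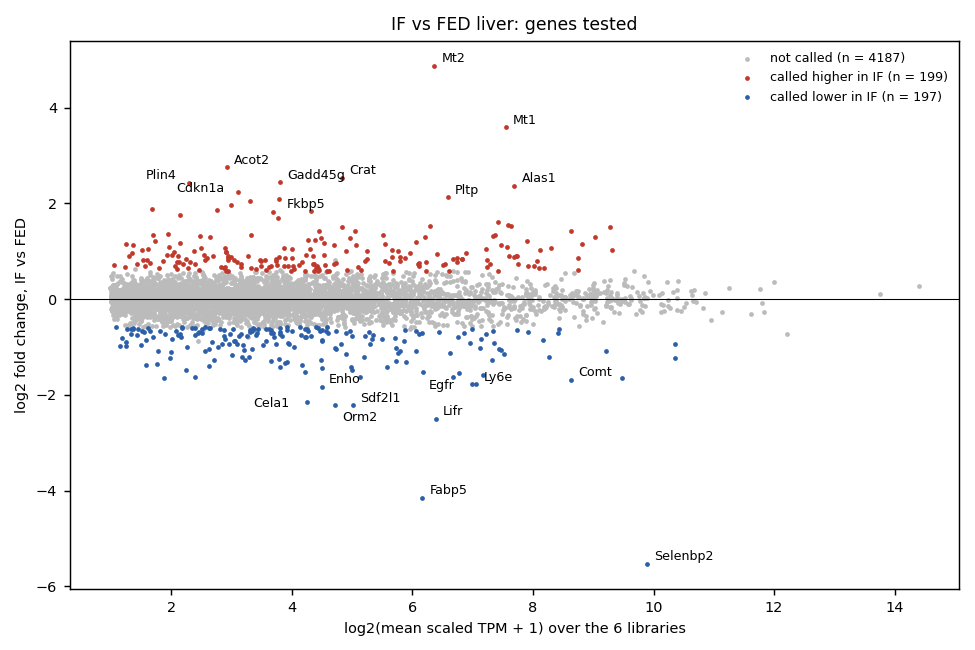
Log2 fold change of IF against FED (vertical axis) plotted against log2(mean scaled TPM + 1) over the 6 libraries (horizontal axis), 1 point per gene. The 199 genes called higher are red, the 197 called lower are blue, and the labelled genes are the 10 largest rises and 10 largest falls, from Mt2 at 4.88 to Selenbp2 at -5.52.

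The metallothioneins, small cysteine-rich proteins that bind zinc and copper, rose most. Mt2 (NCBI gene 17750) was at 1.52, 3.32 and 9.75 TPM in FED and 122, 258 and 92.6 TPM in IF livers, a log2FC of 4.88 ± 0.50, adjusted p = 2.00e-04. Mt1 (NCBI gene 17748) was at 17.4, 18.989 and 49.5 TPM in FED and 311, 516 and 201 TPM in IF livers, with a log2FC of 3.59 ± 0.41, adjusted p = 3.17e-04. For both genes the highest FED liver was replicate 3 and the highest IF liver replicate 2, and the lowest IF value lay several-fold above the highest FED value. The zinc importer Slc39a4 moved the other way, from 48.7, 37.6 and 47.9 TPM in FED to 19.3, 14.7 and 14.4 TPM in IF livers (log2FC -1.42 ± 0.13, adjusted p = 1.18e-04). Slc39a11, another zinc transporter, fell by 0.67 on the log2 scale.

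The sequences before the starts of these 2 genes are shown because metallothionein genes are the textbook targets of the metal response element, bound by the zinc sensor MTF1. They are the 250 bases that end at the gene start of the RefSeq annotation of GRCm38.p6, both on the + strand, Mt2 at chr8:94172368-94172617 and Mt1 at chr8:94178839-94179088. Capitals mark matches to TGCGCNC or TGCACNC on either strand.
Mt2: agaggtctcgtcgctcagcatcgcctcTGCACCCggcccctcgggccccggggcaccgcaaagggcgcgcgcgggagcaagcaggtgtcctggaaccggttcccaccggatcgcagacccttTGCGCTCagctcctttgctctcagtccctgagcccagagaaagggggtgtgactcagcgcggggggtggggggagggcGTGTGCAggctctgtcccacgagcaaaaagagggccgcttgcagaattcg
Mt1: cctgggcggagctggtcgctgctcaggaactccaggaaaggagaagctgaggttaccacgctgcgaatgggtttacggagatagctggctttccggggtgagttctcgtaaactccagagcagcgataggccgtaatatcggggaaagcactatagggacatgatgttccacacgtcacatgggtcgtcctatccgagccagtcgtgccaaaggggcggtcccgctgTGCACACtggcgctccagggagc
Mt2 held 3 matches and Mt1 held 1. Of 32851 RefSeq promoters, 21.4% held a match to either form in the same window and 12.5% held TGCGCNC alone, which is in the Mt2 window but not in that of Mt1. The form with A was added after the values were seen. A match is a description of the letters and does not show binding. Letters after the annotated start, or further before it, were not searched, so these counts are not those of the whole promoter.

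Genes of mitochondrial fatty acid oxidation were higher in IF livers as a group. Of 33 genes on the list, 14 were in the table and tested, and 10 (71.4%) were called higher and 0 lower, beside the 4.34% of all genes that were called higher. Their median log2 fold change was 0.87, against -0.0016 over all genes tested. Without scaling 11 were called higher. This list, like all lists here, was written with earlier results of these data known. Its share is therefore a description and not an independent test.

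Entry of long-chain fatty acids into mitochondria depends on carnitine. The carnitine transporter Slc22a5 was at 6.60, 9.18 and 6.99 TPM in FED and 29.9, 23.9 and 36.9 TPM in IF livers, a log2FC of 1.85 ± 0.16, adjusted p = 7.50e-05. Cpt1a, the carnitine palmitoyltransferase that controls the rate of entry, was at 73.7, 107 and 99.8 TPM in FED and 233.55, 249 and 222 TPM in IF livers (log2FC 1.34 ± 0.13, adjusted p = 1.44e-04). The 3 IF libraries of each gene lay above the 3 FED libraries. Cpt2, which reverses the transfer inside the mitochondrion, rose by a log2FC of 0.85 and Acsl1, which activates fatty acids to acyl-CoA, rose by 1.29 on the log2 scale.

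Among the enzymes of the β-oxidation cycle itself, the long-chain acyl-CoA dehydrogenase Acadl had the smallest adjusted p of the list. It was at 88.9, 103 and 95.9 TPM in FED and 197, 215 and 191 TPM in IF livers (log2FC 1.06 ± 0.08, adjusted p = 5.36e-05). Hadha, a subunit of the trifunctional protein, rose by a log2FC of 0.87, Hadh by 0.66, and Eci1, Eci2 and Decr1, which handle double bonds of unsaturated fatty acids, by 0.90, 1.10 and 0.86. The 4 members not called were Acaa2 (log2FC 0.36), Etfa (0.23), Echs1 (0.12) and Acad9 (-0.17), which serves mainly in assembly of respiratory complex I.

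Of 16 peroxisomal and omega oxidation genes tested, 5 (31.2%) were called higher, beside 4.34% of all genes, and 0 lower, with a median log2FC of 0.46. Without scaling 10 were called higher. Crat, the carnitine acetyltransferase that exchanges short acyl groups, changed from 6.85, 7.44 and 7.80 TPM in FED to 45.005, 46.9 and 50.2 TPM in IF livers, a log2FC of 2.53 ± 0.08, adjusted p = 1.86e-07, and the groups lay far apart with little spread in either. The fatty aldehyde dehydrogenase Aldh3a2 was at 61.4, 99.8 and 91.4 TPM in FED and 288, 208 and 269 TPM in IF livers (log2FC 1.60 ± 0.18, adjusted p = 2.95e-04). Ech1, Acaa1a and Hsd17b4, peroxisomal β-oxidation enzymes, rose by a log2FC of 1.15, 0.90 and 0.66.

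Acyl-CoA thioesterases release free fatty acids from coenzyme A. Of 5 tested, 2 (40.0%) were higher, beside 4.34% of all genes. The mitochondrial Acot2 was at 0.590, 1.73 and 0.668 TPM in FED and 13.7, 9.80 and 13.1 TPM in IF livers, the third largest rise of all genes (log2FC 2.76 ± 0.20, adjusted p = 5.36e-05). It belongs to a cluster of closely related genes, of which Acot1, Acot3 and Acot4 were not analysed here, so reads shared between copies could affect its level. The peroxisomal Acot8 rose by a log2FC of 0.76, while Acot9 and Acot13 had log2FC values of -0.19 and 0.16 with adjusted p values of 0.210 and 0.213.

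For ketone bodies, 4 genes were tested, of which 2 were called higher and 1 lower. Slc16a1, which carries ketone bodies and lactate across the cell membrane, rose by a log2FC of 0.74. Bdh2, a short-chain dehydrogenase, was at 19.7, 19.1 and 18.976 TPM in FED and 10.4, 8.89 and 9.38 TPM in IF livers and was lower in every IF library (log2FC -0.94 ± 0.08, adjusted p = 7.10e-05). Oxct1, which uses ketone bodies in other tissues and has a low level in liver, was between 0.819 and 2.10 TPM in the 6 livers.

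Lipid droplet genes moved in both directions, with 6 of 13 (46.2%) called higher and 2 (15.4%) lower, beside 4.34 and 4.30% of all genes. The median log2FC was 0.45. Without scaling 9 were higher and 1 lower. Plin4, a protein of the droplet surface, was at 0.312, 0.566 and 0.690 TPM in FED and 7.07, 5.61 and 9.15 TPM in IF livers (log2FC 2.43 ± 0.16, adjusted p = 3.36e-05). Plin2, the main droplet protein of liver, rose by a log2FC of 0.85, and Fitm2, which takes part in droplet formation, by 1.14. Lipolysis genes were split with scaling, where Abhd5 and Fabp5 were the 2 lower genes of the list. Only Fabp5, described below, was also called lower without scaling. The triglyceride lipase Pnpla2 was at 33.7, 35.7 and 35.5 TPM in FED and 73.1, 77.7 and 63.9 TPM in IF livers (log2FC 1.01 ± 0.08, adjusted p = 7.10e-05), whereas its coactivator Abhd5 was at 16.4, 15.5 and 15.4 TPM in FED and 10.4, 9.62 and 10.3 TPM in IF livers (log2FC -0.60 ± 0.07, adjusted p = 4.32e-04). Angptl4, a secreted inhibitor of lipoprotein lipase, rose by a log2FC of 0.84. The PPAR response element, AGGTCA repeated after any 1 base on either strand, was in 0 of 9, 0 of 3 and 0 of 6 promoters of called genes of the mitochondrial, peroxisomal and lipid droplet lists and in 0 of 2, 0 of 9 and 0 of 4 of those not called, against 0.0335% of all promoters, which says only that these letters are not in the 250 bases searched.

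The fatty acid binding protein Fabp5 had the second largest fall of all genes. It was at 202, 67.6 and 133 TPM in FED and 3.16, 3.97 and 14.964 TPM in IF livers, a log2FC of -4.15 ± 0.51, adjusted p = 4.41e-04. FED livers differed widely among themselves, and IF replicate 3 was the highest of the IF group, but the lowest FED value was still far above it.

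In fatty acid and triglyceride synthesis, 8 of 19 genes tested (42.1%) were called lower and 4 (21.1%) higher, beside 4.30 and 4.34% of all genes. The median log2FC was -0.51. Without scaling these counts were 5 and 5. The 8 were 5 enzymes of the route from citrate and acetate to long-chain fatty acids, a pair of NADPH-producing enzymes and a transcription factor. Fasn, fatty acid synthase, was at 62.4, 30.2 and 64.7 TPM in FED and 15.4, 13.4 and 18.2 TPM in IF livers (log2FC -1.62 ± 0.25, adjusted p = 0.00168). Acly, which makes cytosolic acetyl-CoA from citrate, was at 132, 67.5 and 120.3 TPM in FED and 35.1, 36.4 and 34.043 TPM in IF livers (log2FC -1.52 ± 0.21, adjusted p = 8.42e-04). In both genes FED replicate 2 was the lowest fed liver, and still no FED library reached an IF value. Acss2, which makes acetyl-CoA from acetate, was at 189, 121 and 175 TPM in FED and 54.9, 57.5 and 50.1 TPM in IF livers (log2FC -1.53 ± 0.15, adjusted p = 1.51e-04).

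Srebf1, the transcription factor that drives lipogenic genes, was at 73.6, 31.2 and 48.1 TPM in FED and 16.8, 21.8 and 22.2 TPM in IF livers and fell by 1.22 on the log2 scale. Acaca, the acetyl-CoA carboxylase that commits acetyl-CoA to fatty acids, had a log2FC of -0.62, and Elovl6, which extends palmitate, of -0.73. The NADPH-producing enzymes Pgd and G6pdx had log2FC values of -1.05 and -0.59. Scd1, the stearoyl-CoA desaturase, did not pass the test. It was at 1784, 1298 and 2048 TPM in FED and 1376, 2137 and 1415 TPM in IF livers, the 2 groups overlapped, and the log2FC was -0.06 ± 0.20, adjusted p = 0.848. The 4 genes that rose act in long-chain elongation or in glycerolipid assembly. They were Elovl5 (log2FC 0.70) and Hacd3 (0.71) for long-chain elongation, and the acyltransferases Gpat4 (0.77) and Agpat3 (0.73).

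Cholesterol genes followed a similar split, with 5 of 10 called lower and 2 higher and a median log2FC of -0.61. The 5 were enzymes of synthesis. Hmgcs1, HMG-CoA synthase, was at 179, 149 and 228 TPM in FED and 74.7, 79.9 and 122 TPM in IF livers (log2FC -1.01 ± 0.20, adjusted p = 0.00480). Pmvk, phosphomevalonate kinase, had a log2FC of -1.29, Cyp51 of -1.13, squalene epoxidase Sqle of -0.94 and squalene synthase Fdft1 of -0.67. IF replicate 3 was the highest IF liver for each of these 5 enzymes. The 2 genes that rose lower sterol synthesis or uptake, Insig2 (log2FC 0.59), which retains the SREBP system in the endoplasmic reticulum, and Mylip (0.78), a ubiquitin ligase that degrades the LDL receptor. In the fit of all 9 libraries, 1 gene of this list was called lower instead of 5. Of 3 bile acid and sterol export genes tested, Cyp46a1, a cholesterol hydroxylase, rose by a log2FC of 1.16 from a level below 1 TPM.

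**Figure D2:**
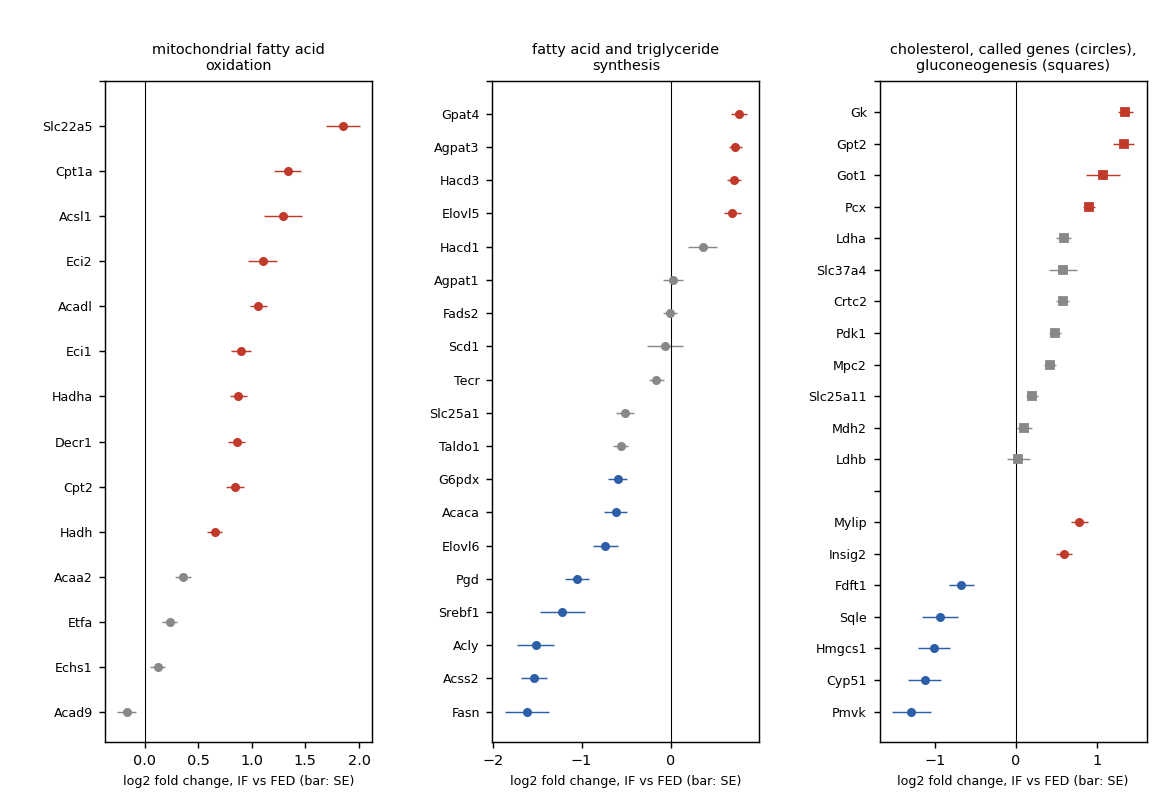
Log2 fold change of IF against FED with its standard error (horizontal axes) for each tested gene of 3 lists and the called genes of cholesterol synthesis and uptake (vertical axes), red where called higher, blue where called lower and grey where not called. Fatty acid oxidation genes lie to the right of 0 except Acad9, and the called genes from citrate to palmitate and the called enzymes of cholesterol synthesis lie to the left, with Scd1 at -0.06.

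Gluconeogenesis and glycerol use had 4 of 12 genes (33.3%) called higher, beside 4.34% of all genes, and 0 lower. The median log2FC was 0.57, and all 12 had a log2 fold change above 0. Without scaling 9 were called higher, and without FED replicate 1 the number was 7. Glycerol kinase Gk, which brings glycerol from lipolysis into glucose synthesis, was at 21.2, 26.9 and 26.5 TPM in FED and 64.5, 62.7 and 65.5 TPM in IF livers (log2FC 1.34 ± 0.09, adjusted p = 4.08e-05). Pcx, pyruvate carboxylase, the first step from pyruvate to glucose, was at 158, 138 and 144 TPM in FED and 271, 287 and 261 TPM in IF livers (log2FC 0.90 ± 0.08, adjusted p = 7.50e-05). The transaminases Gpt2 and Got1, which connect alanine and aspartate to this route, rose by a log2FC of 1.32 and 1.07. For Got1 the IF livers spread from 299 to 584 TPM. The CREB coactivator Crtc2 was under the fold limit (log2FC 0.57 ± 0.09, adjusted p = 0.00135). The cAMP response element, TGACGTCA, was in 0 of the 4 called promoters and in 2 of the 7 not called that had one (Ldha and Mdh2), against 1.55% of all promoters.

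Glycolysis and glycogen had few calls, with 1 of 21 genes called higher, 1 lower and a median log2FC of -0.02 (3 higher and 0 lower without scaling). Pfkfb3, which raises the glycolytic activator fructose 2,6-bisphosphate, was at 2.46, 2.67 and 2.40 TPM in FED and 1.2546, 1.01 and 1.36 TPM in IF livers, and the glucose transporter Slc2a1 rose by a log2FC of 0.77. In the citric acid cycle list, Pcx was the only one of 14 genes called.

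Amino acid breakdown and the urea cycle had 5 of 23 genes (21.7%) called higher, beside 4.34% of all genes, and 0 lower. The median log2FC was 0.06. Argininosuccinate lyase, Asl, was at 332, 286 and 326 TPM in FED and 969.7, 1173 and 619 TPM in IF livers (log2FC 1.4992 ± 0.20, adjusted p = 6.65e-04). Cth, which releases cysteine from cystathionine, was at 444, 386 and 399 TPM in FED and 948, 1049 and 585 TPM in IF livers (log2FC 1.03 ± 0.19, adjusted p = 0.00377). In both, IF replicate 3 was the lowest of its group, as it was for Gpt2 and Got1. Csad, of taurine synthesis, rose by a log2FC of 1.03. Argininosuccinate synthase Ass1, the step before Asl, was at 4071, 3289 and 3493 TPM in FED and 3832, 4340.3 and 2424 TPM in IF livers with overlapping groups (adjusted p = 0.822). Only 2 of these 5 genes were called in the fit of all 9 libraries.

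In insulin, FoxO and mTOR signalling, 2 of 27 genes were called, both higher, which is near the background of 4.34%, and without scaling 5 were higher. They were Sik1, a kinase induced by glucagon through cAMP, at 2.59, 3.68 and 3.63 TPM in FED and 5.92, 6.16 and 7.51 TPM in IF livers (log2FC 0.81 ± 0.13, adjusted p = 0.00168), and Pparg (log2FC 0.86 ± 0.25, adjusted p = 0.0315). The insulin receptor Insr stayed under the fold limit (log2FC 0.32 ± 0.08, adjusted p = 0.0205), and Irs2, an insulin receptor substrate, had a log2FC of 0.26 ± 0.13, adjusted p = 0.153.

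Of 16 genes known to respond to glucocorticoids, 7 (43.8%) were called higher, beside 4.34% of all genes, and 0 lower. The median log2FC was 0.71. Without scaling 11 were higher. Metallothioneins and Angptl4 are 3 of these 7. Fkbp5, a chaperone of the glucocorticoid receptor, was at 2.26, 5.20 and 5.73 TPM in FED and 19.2, 27.6 and 17.3 TPM in IF livers (log2FC 2.09 ± 0.26, adjusted p = 5.17e-04). Per1, which is also a clock gene, was at 2.83, 1.11 and 2.03 TPM in FED and 9.06, 9.85 and 9.77 TPM in IF livers (log2FC 1.86 ± 0.18, adjusted p = 1.63e-04). Cdkn1a and Gadd45b, described below, completed the 7. Other members of the list did not pass. Tsc22d3, a common marker of glucocorticoid action, was at 81.5, 26.1 and 40.4 TPM in FED and 46.2, 47.1 and 66.7 TPM in IF livers with overlapping groups (adjusted p = 0.625). Sgk1 and Klf9 had log2FC values of 0.61 and 0.52.

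The circadian list had 6 of 16 genes (37.5%) called higher and 1 (6.25%) lower, beside 4.34 and 4.30% of all genes. Feeding time sets the liver clock, and the hour of sacrifice is not given in the sources used here, so clock phase and fasting cannot be told apart. Among core clock genes and their direct outputs, Per1 and Dbp rose (Dbp was at 15.6, 10.7 and 12.8 TPM in FED and 20.3, 34.6 and 22.3 TPM in IF livers, 0.91 ± 0.19, adjusted p = 0.00733). Nr1d1, the repressor REV-ERBα, had a log2FC of -0.56, under the fold limit, and Arntl, Per2 and Nfil3 had log2FC values of -0.26, 0.20 and 0.05 without passing the test. Bhlhe40, a repressor of clock genes, was at 31.6, 24.1 and 28.7 TPM in FED and 15.3, 14.024 and 15.3 TPM in IF livers and was the gene that fell (log2FC -0.87 ± 0.10, adjusted p = 3.52e-04).

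The 2 cold-inducible RNA-binding proteins of this list rose together, and both respond to lowered body temperature. Rbm3 was at 45.5, 33.2 and 39.1 TPM in FED and 118, 129.7 and 97.956 TPM in IF livers (log2FC 1.53 ± 0.13, adjusted p = 7.50e-05). Cirbp was at 19.4, 13.2 and 17.952 TPM in FED and 53.6, 53.965 and 33.6 TPM in IF livers (log2FC 1.42 ± 0.19, adjusted p = 7.74e-04). Nampt, which makes the NAD precursor nicotinamide mononucleotide, rose by a log2FC of 1.04, and the kinase Wee1 by 0.67. An E-box, CACGTG on either strand, lay within 250 bases before the start of Per1 but of none of the other 3 called members that had a RefSeq promoter, and also in 2 of the 7 not called (Cry1 and Tspan4), against 6.02% of all promoters. A D-box, TTATGTAA, was in 0 of these 4 and 0 of these 7, against 0.819% of all.

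Genes of growth arrest were among the largest rises. In the list of p53 targets and growth arrest genes, 5 of 26 (19.2%) were called higher, beside 4.34% of all genes, and 0 lower. The median log2FC was 0.09. Cdkn1a, which encodes the cell cycle inhibitor p21, was at 2.76, 1.71 and 1.61 TPM in FED and 14.2, 13.7 and 11.6 TPM in IF livers (log2FC 2.24 ± 0.14, adjusted p = 3.36e-05). Gadd45g and Gadd45b, stress-inducible growth arrest genes, were at 2.08, 3.43 and 3.77 TPM in FED and 22.2, 11.7 and 34.5 TPM in IF livers and at 0.790, 1.06 and 1.18 TPM in FED and 6.90, 6.08 and 4.60 TPM in IF livers, with log2FC values of 2.44 and 1.76. The 3 IF livers were above all FED livers in each. Aifm2, also known as FSP1, rose by a log2FC of 1.23 and Ei24 by 0.68, whereas Gadd45a had a log2FC of -0.35 (adjusted p = 0.326).

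In DNA replication and the cell cycle, 4 of 33 genes (12.1%) were called lower, beside 4.30% of all genes. Cdkn1a alone (3.03%) was called higher, beside 4.34% of all genes. Without scaling 1 was lower and 3 were higher. Ccnd1, cyclin D1, which drives entry into the cycle, was at 6.34, 7.69 and 6.74 TPM in FED and 2.04, 1.12 and 1.61 TPM in IF livers (log2FC -1.63 ± 0.13, adjusted p = 7.10e-05). Pold2, Mcm6 and Prim2, of the replication machinery, had log2FC values of -0.63, -0.73 and -0.61, the last 2 from levels under 3 TPM. Among immediate early genes, 3 of 25 were higher and 2 lower, against 7 and 1 without scaling. Myc was at 0.868, 1.04 and 1.40 TPM in FED and 3.60, 3.03 and 7.26 TPM in IF livers (log2FC 1.36 ± 0.24, adjusted p = 0.00286). Socs3 and Zfp36l2 rose by a log2FC of 0.85 and 0.64, and Maff and Dusp6 had log2FC values of -0.98 and -0.76.

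**Figure D3:**
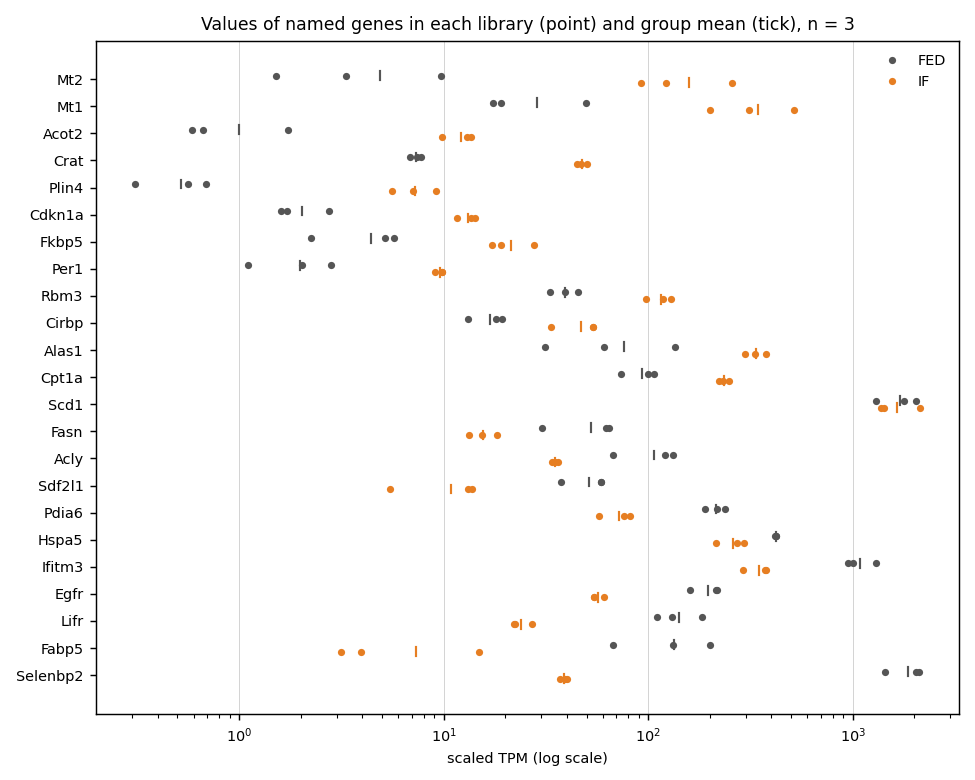
Scaled TPM on a log axis (horizontal) for 23 named genes (vertical), with grey points for the 3 FED livers, orange points for the 3 IF livers and a tick at each group mean. The groups are apart for each gene shown except Scd1, and Selenbp2, at the bottom, fell from between 1432 and 2104 TPM to between 37.2 and 40.0 TPM.

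Genes for protein entry, folding and modification in the endoplasmic reticulum (ER) were lower in IF livers. Of 57 tested, 18 (31.6%) were called lower and 0 higher, beside 4.30% of all genes, and 49 of the 57 had a log2 fold change below 0. The median log2FC was -0.34. Without scaling, 8 were called lower and 1 higher, and the median log2FC was -0.07, which lay 0.31 below that of all genes.

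Chaperones and disulphide enzymes of the ER were among those that fell. Sdf2l1, a cofactor of the chaperone BiP, was at 58.6, 37.3 and 58.9 TPM in FED and 13.2, 5.45 and 13.8 TPM in IF livers (log2FC -2.22 ± 0.30, adjusted p = 7.95e-04). Pdia6, a disulphide isomerase, was at 238, 191 and 216 TPM in FED and 76.6, 57.6 and 81.5 TPM in IF livers (log2FC -1.58 ± 0.13, adjusted p = 7.12e-05). Hspa5, which encodes BiP itself, was at 417, 424 and 419 TPM in FED and 272, 214 and 295 TPM in IF livers (log2FC -0.70 ± 0.11, adjusted p = 0.00189). The FED livers agreed closely for Hspa5, and all 3 IF livers lay below them, replicate 2 lowest. The calcium-binding chaperone Calr, the cyclophilin Ppib and the secreted factor Manf had log2FC values of -1.08, -1.20 and -1.28. Hsp90b1 stayed under the fold limit at a log2FC of -0.52.

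Proteins enter the ER through the translocon. Translocon and signal peptidase subunits were lower, with Sec61g at 137, 133 and 134 TPM in FED and 56.8, 60.005 and 66.5 TPM in IF livers (log2FC -1.13 ± 0.07, adjusted p = 3.36e-05), Sec61a1 at a log2FC of -0.71, Spcs2 at -0.69 and Spcs3 at -0.67. Of the oligosaccharyltransferase, which attaches N-linked glycans, Ddost fell by 1.09 and Stt3a had a log2FC of -0.63. The stress sensor Ern1, which encodes IRE1α, had a log2FC of -0.95. In a list of genes that make the glycan precursor, written after the values were seen, 4 of 19 were lower and 1 higher (2 and 1 without scaling). Downstream of the ER, 2 of 40 genes of COP vesicles and Golgi traffic were higher, Tmed5 (log2FC 1.27) and Sec22c (1.02), and 1 was lower, Sec23b (-0.66), a share near that of all genes, and without scaling 5 were higher and 0 lower.

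Promoters of the ER genes were searched for the ER stress response element, CCAAT and CCACG with any 9 bases between them on either strand, which was chosen after the values were seen. It was present in 4 of the 15 called members that had a RefSeq promoter (Calr, Ero1b, Hspa5 and Pdia6), in 3 of the 34 not called (Dnajc3, Hsp90b1 and Syvn1), and in 0.113% of all 32851 promoters. Of the 3 shown, with the element in capitals, Hspa5 is at chr2:34771840-34772089 on the + strand, Calr at chr8:84846932-84847181 on the - strand and Pdia6 at chr12:17266339-17266588 on the + strand of GRCm38.p6. Each is the 250 bases that end at the RefSeq gene start, and in Calr the element reads on the opposite strand.
Hspa5: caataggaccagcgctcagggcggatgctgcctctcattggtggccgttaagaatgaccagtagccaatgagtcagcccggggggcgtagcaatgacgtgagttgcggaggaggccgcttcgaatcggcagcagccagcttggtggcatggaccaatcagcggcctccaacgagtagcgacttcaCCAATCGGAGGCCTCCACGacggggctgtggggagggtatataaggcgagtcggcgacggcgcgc
Calr: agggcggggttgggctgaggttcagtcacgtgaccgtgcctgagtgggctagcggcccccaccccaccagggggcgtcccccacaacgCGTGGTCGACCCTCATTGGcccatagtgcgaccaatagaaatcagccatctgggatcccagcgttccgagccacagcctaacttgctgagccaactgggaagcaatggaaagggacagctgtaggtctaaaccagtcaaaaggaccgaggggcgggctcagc
Pdia6: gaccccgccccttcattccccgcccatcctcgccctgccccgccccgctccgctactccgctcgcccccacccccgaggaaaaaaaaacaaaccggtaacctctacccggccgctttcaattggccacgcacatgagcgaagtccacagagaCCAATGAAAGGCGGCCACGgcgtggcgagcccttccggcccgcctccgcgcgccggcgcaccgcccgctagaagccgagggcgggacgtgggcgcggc
The element lay 65 bases before the start in Hspa5, 162 in Calr and 98 in Pdia6, counted from its first base shown. The members that held it had log2 fold changes from -1.58 to -0.70 among the called genes.

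Few cytosolic stress genes were called. Of 39 heat shock and cytosolic chaperone genes, 0 were called higher and 1 lower, Chordc1 (log2FC -0.64 ± 0.09, adjusted p = 9.96e-04), with a median log2FC of -0.01 (3 higher and 0 lower without scaling). Hspa8 was at 679, 576 and 700.1 TPM in FED and 773, 742 and 880.1 TPM in IF livers, and Hspd1 and Dnaja1 had log2FC values of 0.05 and 0.00. In the integrated stress response, 1 of 18 (5.56%) was higher, Cth, and 2 (11.1%) were lower, beside 4.34 and 4.30% of all genes. Asns, asparagine synthetase, was at 6.64, 3.48 and 14.5 TPM in FED and 3.18, 1.86 and 1.46 TPM in IF livers, with a wide spread among FED livers (log2FC -1.39 ± 0.38, adjusted p = 0.0239), and Chac1, a glutathione-degrading enzyme, was at 1.76, 3.85 and 2.63 TPM in FED and 0.822, 0.740 and 1.06 TPM in IF livers. The factors Atf4 and Ddit3 did not pass (log2FC -0.17 and -0.33). Of 26 aminoacyl-tRNA synthetases, 2 were lower, Cars (log2FC -0.88) and Tars2 (-0.64), and 21 had values below 0. In the oxidative stress and glutathione list, 4 of 32 (12.5%) were higher and 3 (9.38%) lower, against 6 and 1 without scaling. Besides the metallothioneins, the glutaredoxin Glrx rose by a log2FC of 1.19, and heme oxygenase Hmox1 was at 15.3, 14.2 and 15.4 TPM in FED and 8.53, 8.10 and 9.80 TPM in IF livers and was lower (log2FC -0.70 ± 0.09, adjusted p = 4.50e-04).

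Genes of the interferon response and antigen presentation were lower. Of 35 tested, 14 (40.0%) were called lower, beside 4.30% of all genes, and 1 higher, H2-Q1. The median log2FC was -0.44. Without scaling 9 were lower and 2 higher. Ifitm3, a membrane protein that restricts viral entry, was at 1299, 948 and 1004 TPM in FED and 290.4, 377 and 372 TPM in IF livers (log2FC -1.64 ± 0.14, adjusted p = 7.50e-05). Bst2, also known as tetherin, was at 263, 229 and 226 TPM in FED and 105, 115 and 123.44 TPM in IF livers (log2FC -1.06 ± 0.09, adjusted p = 7.10e-05). Oas1a, a sensor of double-stranded RNA, was at 4.70, 2.53 and 2.82 TPM in FED and 0.459, 0.571 and 0.951 TPM in IF livers, and Gbp10 and Zbp1 had log2FC values of -1.36 and -1.09. Irf7, a master regulator of the response, was at 35.988, 22.1 and 26.1 TPM in FED and 13.5, 17.7 and 20.9 TPM in IF livers and passed narrowly (log2FC -0.65 ± 0.19, adjusted p = 0.0277). Ifitm2 and Ifitm3, as well as the Gbp genes, have close copies in the genome, and reads shared between copies could affect their levels.

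The immunoproteasome subunits Psmb8 and Psmb9, which replace constitutive subunits to cut peptides for antigen presentation, were at 41.953, 35.1 and 31.7 TPM in FED and 17.2, 20.4 and 17.3 TPM in IF livers and 32.5, 25.6 and 33.7 TPM in FED and 11.2, 12.5 and 12.2 TPM in IF livers, with log2FC values of -0.94 and -1.28. They were the only genes called among 24 proteasome genes, which had a median of -0.01. Of 108 ubiquitin genes, 3 were called, and without scaling 8 were higher and 1 lower. The 2 that fell, Uba7 (log2FC -1.08) and Ube2l6 (-0.65), are the activating and conjugating enzymes of the interferon-induced modifier ISG15, and Ube2e2 rose by 0.92.

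Markers of cells other than hepatocytes were sparse in the table. Of 25 Kupffer cell and macrophage markers, 3 were listed and 2 tested, and both were called lower, Cd68 at 7.07, 11.5 and 8.96 TPM in FED and 4.60, 2.80 and 5.64 TPM in IF livers (log2FC -0.94 ± 0.21, adjusted p = 0.00957) and Hmox1. The summed level of the 2 was between 22.35 and 25.68 TPM in FED and between 10.9 and 15.44 TPM in IF livers. The defining markers Adgre1, Clec4f, Csf1r and C1qa were not analysed here. In a list of further leukocyte genes, written after the values were seen, 7 of 9 were lower, among them Mpeg1 at 29.2, 17.7 and 28.6 TPM in FED and 8.25, 9.12 and 9.43 TPM in IF livers, the chemokine Ccl9 (log2FC -1.44) and Wfdc17 (-1.14). These values moved with the interferon list, and their part in its fall was not tested. Of 7 stellate cell and fibroblast markers, Vim rose by a log2FC of 0.67, Dcn had a log2FC of 0.58 under the fold limit and Col1a1 did not pass (-0.28). Endothelial, cholangiocyte and lymphocyte markers had 2, 2 and 1 genes tested, of which 0 were called. Of 24 markers of blood, fat and pancreas that could be carried over at dissection, 1 was in the table. It was Cela1, a pancreatic elastase, at 31.2, 33.3 and 25.7 TPM in FED and 5.88, 6.75 and 5.44 TPM in IF livers, one of the 10 largest falls (log2FC -2.14 ± 0.11, adjusted p = 8.56e-06). Its part in other results was not tested.

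Acute phase and plasma protein genes had 4 of 32 (12.5%) called lower and 2 (6.25%) higher, beside 4.30 and 4.34% of all genes. The median log2FC was -0.17. The acute phase glycoproteins Orm1 and Orm2 were at 2344, 1520.3 and 1675 TPM in FED and 771, 884 and 678 TPM in IF livers and at 77.2, 19.3 and 31.9 TPM in FED and 11.6, 5.23 and 5.83 TPM in IF livers, with log2FC values of -1.23 and -2.20. They are close copies of each other, and Orm3 was not analysed here. For Orm2 the FED livers differed widely among themselves, replicate 1 being highest. Fgl1 and Apol9a had log2FC values of -0.86 and -1.02, and the protease inhibitor Serpina3m rose by 1.22. Haptoglobin, Hp, was at 5148, 2389.5 and 4676 TPM in FED and 3387, 3577 and 2774 TPM in IF livers and did not pass (adjusted p = 0.482). Without FED replicate 2, 9 members of this list were called lower.

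Sex-biased genes of liver, which follow the pattern of growth hormone release, were few in the table, with 2 male-biased and 3 female-biased genes tested. Both male-biased genes fell. Selenbp2, a selenium-binding protein, was at 2104, 2034 and 1432 TPM in FED and 39.987, 39.3 and 37.2 TPM in IF livers, the largest fall of all genes (log2FC -5.52 ± 0.13, adjusted p = 4.61e-08). Its close copy Selenbp1 was at 277, 217 and 239 TPM in FED and 278, 297 and 256 TPM in IF livers and did not pass the test (log2FC 0.18 ± 0.10, adjusted p = 0.202). Sult5a1, a sulfotransferase, was at 19.6, 21.7 and 14.5 TPM in FED and 6.93, 6.72 and 7.66 TPM in IF livers (log2FC -1.26 ± 0.13, adjusted p = 2.18e-04). The 3 female-biased genes rose, Nipal1 from 0.167, 0.166 and 0.744 TPM in FED to 3.44, 5.50 and 3.14 TPM in IF livers, Atp6v0d2 by a log2FC of 0.70 and Fmo1 by 0.59 on the log2 scale. Xist and genes of the Y chromosome were not analysed here, so the sex of the mice could not be compared between the groups and its part in these values was not tested.

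Among growth hormone, IGF and cytokine receptors and their regulators, 2 of 15 genes (13.3%) were lower and 1 (6.67%) higher. The shares of all genes were 4.30 and 4.34%. Lifr, the receptor of leukaemia inhibitory factor, was at 110.2, 183 and 131 TPM in FED and 22.2, 22.1 and 27.1 TPM in IF livers (log2FC -2.49 ± 0.16, adjusted p = 3.36e-05). Egfr, the epidermal growth factor receptor, was at 160.0, 214 and 217 TPM in FED and 54.3, 54.4 and 61.2 TPM in IF livers (log2FC -1.77 ± 0.12, adjusted p = 3.36e-05). In both, IF livers agreed closely and lay below every FED liver. Socs2, a growth hormone target, varied widely within both groups, from 0.979 to 29.2 TPM in FED and from 2.18 to 13.8 TPM in IF livers. Another large fall was in Enho, which encodes the secreted peptide adropin, at 43.2, 24.8 and 34.4 TPM in FED and 11.8, 9.79 and 5.45 TPM in IF livers (log2FC -1.84 ± 0.25, adjusted p = 8.72e-04).

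Xenobiotic metabolism had 4 of 21 genes in each direction, and 7 higher and 3 lower without scaling. The cytochrome Cyp2f2 had a log2FC of -0.94. Por, which passes electrons to all microsomal cytochromes P450, rose from 82.9, 109 and 112 to 290.3, 357 and 241 TPM (log2FC 1.54 ± 0.15, adjusted p = 1.70e-04), and Ephx1 rose by 0.62. Heme, the cofactor of these enzymes, is made from a step catalysed by Alas1, which was at 31.4, 135 and 60.982 TPM in FED and 334, 297 and 375 TPM in IF livers (log2FC 2.37 ± 0.41, adjusted p = 0.00270). FED livers differed widely for Alas1, replicate 2 being highest, and still lay below every IF liver. Cpox, a later enzyme of the pathway, rose by a log2FC of 0.95, and Ppox had a log2FC of -0.47. They are from a list of 9 heme synthesis genes written after the values were seen, of which 4 were tested. Por was counted as 1 of these 4.

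Zonation genes did not move as a block. Of 6 periportal genes, Asl rose and Cyp2f2 fell, and of 7 pericentral genes 0 were called, with Glul, the glutamine synthetase of the cells around the central vein, at 528, 641 and 584 TPM in FED and 569, 393 and 479 TPM in IF livers.

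Few genes of protein synthesis and respiration were called. Of 81 cytosolic ribosomal protein genes 0 were called, with a median log2FC of 0.03 and values from -0.56 to 0.42. Also 0 were called of 44 mitochondrial ribosomal proteins (median -0.12), 44 translation factors (0.10) and 56 ribosome biogenesis genes (0.02). Of 74 genes of the respiratory chain and ATP synthase 1 was called, Atpif1, an inhibitor of the synthase, which was lower (log2FC -0.65 ± 0.11, adjusted p = 0.00299). Without scaling the called genes in these 5 lists were 1, 1, 5, 3 and 1, all higher.

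In autophagy and lysosome genes, 5 of 54 (9.26%) were higher and 1 (1.85%) lower, beside 4.34 and 4.30% of all genes. Without scaling the counts were 10 and 1. The median log2FC was -0.01. Bnip3, a receptor for the removal of mitochondria, was at 80.3, 107 and 105 TPM in FED and 279, 313 and 262 TPM in IF livers (log2FC 1.54 ± 0.12, adjusted p = 5.36e-05). The receptor Optn and Map1lc3a, a protein of the autophagosome membrane, rose by a log2FC of 0.67 and 0.69, the cathepsin Ctsf by 0.72, and the kinase Ulk2 was lower at a log2FC of -0.92. Sqstm1, the p62 receptor, was at 369, 355 and 349 TPM in FED and 358, 362 and 355 TPM in IF livers and had a log2FC of 0.00.

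Of 66 solute carriers, 7 (10.6%) were higher and 4 (6.06%) lower, beside 4.34 and 4.30% of all genes. Without scaling 12 were higher and 1 lower. Slc27a1, which imports long-chain fatty acids, was at 2.08, 2.28 and 2.35 TPM in FED and 12.1, 11.1 and 11.9 TPM in IF livers (log2FC 1.97 ± 0.08, adjusted p = 1.73e-06). The arginine transporter Slc7a2 rose by a log2FC of 0.97, the mitochondrial carrier Slc25a34 by 1.32 and the folate transporter Slc19a1 by 0.74. Slc33a1, which imports acetyl-CoA into the ER, had a log2FC of -0.76 and Slc35b1, which imports ATP into the ER, of -0.82. Nuclear receptors and liver transcription factors had 1 of 23 (4.35%) called in each direction, Pparg and Srebf1, which is near the shares of all genes. Without scaling 5 were higher and 1 lower.

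**Figure D4:**
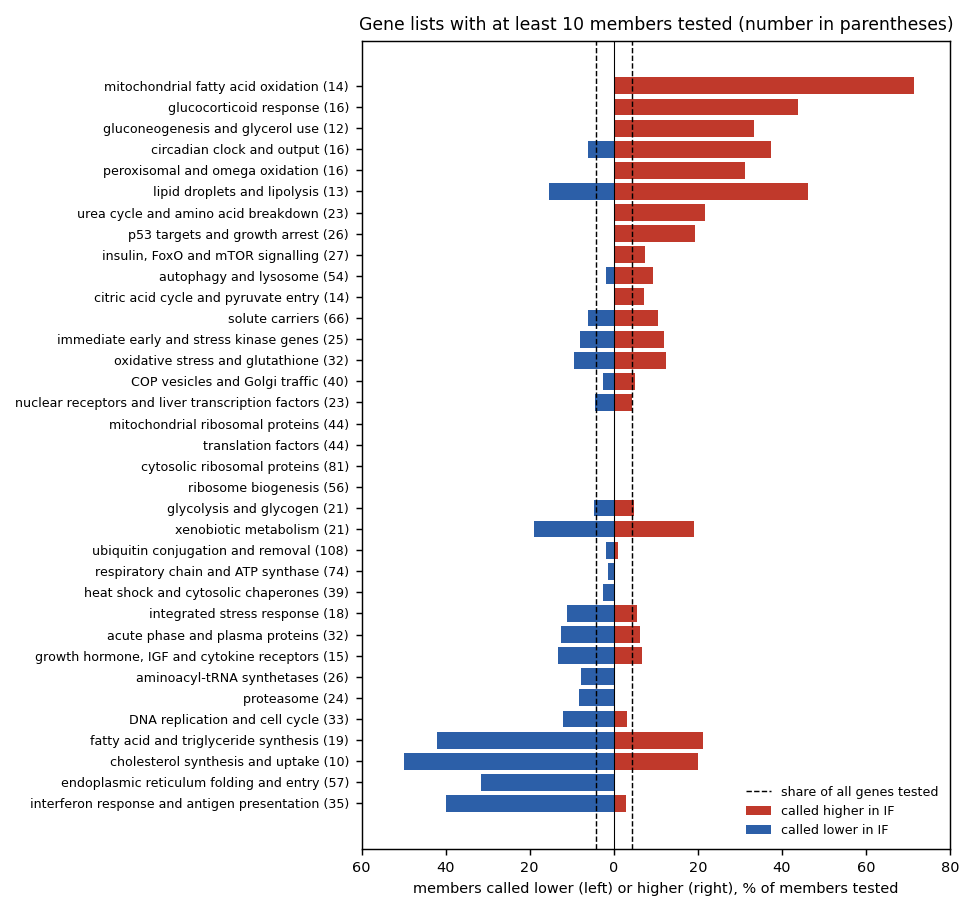
Share of tested members called higher (red, to the right) or lower (blue, to the left) in IF livers, in percent (horizontal axis), for each list with at least 10 genes tested (vertical axis, number tested in parentheses). Lists written after the values were seen are left out. The dashed lines are the shares of all genes, 4.34 and 4.30%, and the longest bars are mitochondrial fatty acid oxidation at 71.4% higher and cholesterol synthesis at 50.0% lower.

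Of the 396 called genes, 213 were on none of the lists. Some of the largest, picked after their values were seen, were as follows. Pltp, which transfers phospholipids between lipoproteins, was at 22.8, 33.7 and 49.9 TPM in FED and 118, 197 and 148 TPM in IF livers (log2FC 2.13 ± 0.26, adjusted p = 4.39e-04). Rab30, a GTPase of the Golgi, was at 2.21, 4.45 and 2.10 TPM in FED and 15.6, 12.7 and 16.2 TPM in IF livers (log2FC 2.06 ± 0.20, adjusted p = 1.51e-04). Nnt, a mitochondrial transhydrogenase that makes NADPH and that carries a deletion of several exons in the C57BL/6J strain, was at 13.1, 14.2 and 13.8 TPM in FED and 39.995, 40.6 and 42.3 TPM in IF livers, with groups far apart and little spread (log2FC 1.51 ± 0.07, adjusted p = 3.14e-06). Hsd17b10, a mitochondrial dehydrogenase of branched amino acid breakdown, rose by a log2FC of 1.43, and the cardiolipin synthase Crls1 by 1.01. Depp1, a FoxO target in other tissues, went down from 237, 105 and 125 to 43.998, 46.1 and 49.4 TPM (log2FC -1.63 ± 0.24, adjusted p = 0.00130). A list of tubulins, also written after the values were seen, had 4 of 6 genes lower. Tuba1b was at 78.8, 63.6 and 61.8 TPM in FED and 25.4, 20.1 and 29.7 TPM in IF livers (log2FC -1.41 ± 0.14, adjusted p = 1.70e-04), and Tuba1a, Tubb5 and Tuba4a had log2FC values of -1.48, -1.01 and -0.80. Tubulin genes share much of their sequence.

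The last comparison asked which of the genes that changed in IF livers also differed between the 2 restricted groups. In a fit of all 9 libraries scaled together, 105 of 4583 genes (2.29%) differed between IF and FMD, and 32 of the 396 genes called in IF against FED were among them. The filter used FED and IF livers only, so genes detected mainly in FMD livers could be missing. The FMD libraries were uneven. Their scale factors were 1.422, 1.139 and 1.092, against 1.029, 1.022 and 0.963 in IF, and the spread of each gene was estimated over all 3 groups. The 2 comparisons share the IF livers, so nothing is read from this number against the share of all genes. Both restricted groups are set against the same FED livers, and the test used here is that of IF against FMD itself. Of these 32 genes, 12 rose in IF and were higher in IF than in FMD, 5 rose in IF but were higher in FMD, 10 fell in IF and were lower in IF than in FMD, and 5 fell in IF but were lower in FMD.

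Pltp separated the 2 regimens most among genes higher in IF. It was at 130.3, 216 and 163 TPM in IF and at 20.1, 36.3 and 23.5 TPM in FMD livers (replicates 1, 2 and 4), against 25.1, 37.1 and 54.8 TPM in FED livers, and IF exceeded FMD by 2.64 ± 0.29 on the log2 scale, adjusted p = 0.00355. FMD livers lay in the range of FED livers or below it. Cirbp was at 58.989, 59.2 and 37.1 TPM in IF, 16.016, 20.4 and 24.7 TPM in FMD and 21.3, 14.5 and 19.7 TPM in FED livers, and IF exceeded FMD by 1.29 ± 0.22 on the log2 scale, adjusted p = 0.0198. Its rise was seen in IF livers, while FMD livers overlapped with FED.

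Maff, a small MAF transcription factor induced by stress, showed the largest difference. It was at 0.738, 0.333 and 0.540 TPM in IF, 1.90, 1.71 and 2.81 TPM in FED and 18.1, 15.6 and 10.9 TPM in FMD livers, so that it was below FED in one regimen and above it in the other (IF minus FMD -3.35 ± 0.19 on the log2 scale, adjusted p = 1.71e-05). Chac1 was at 0.904, 0.812 and 1.17 TPM in IF, 1.94, 4.23 and 2.89 TPM in FED and 8.12, 3.57 and 6.14 TPM in FMD livers, with FED and FMD overlapping. Pvr, an adhesion molecule, was at 2.19, 2.63 and 2.90 TPM in IF and 17.1, 9.29 and 6.06 TPM in FMD livers. The IF and FMD libraries of these 3 genes did not overlap.

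Acot2 was above FED in both regimens and higher in FMD than in IF livers. Its values were 15.1, 10.7 and 14.4 TPM in IF and 62.2, 39.7 and 26.953 TPM in FMD livers, against 0.649, 1.90 and 0.735 TPM in FED livers (IF minus FMD -1.54 ± 0.29 on the log2 scale, adjusted p = 0.0253). Sik1 and Gadd45b had the same order, with differences of -1.04 and -1.43. Apol9a was below FED in both and lower in FMD than in IF livers, from 100.2, 64.6 and 66.967 TPM in FED to 30.2, 42.2 and 39.2 TPM in IF and 12.2, 9.83 and 12.996 TPM in FMD livers. Orm1, Sult5a1 and Cela1 had this order as well.

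The number of genes that differed between IF and FMD, 32 among those called, rested on single libraries. It was 10 without IF replicate 1, 7 without IF replicate 2 and 16 without IF replicate 3, 55 without FMD replicate 2 and 78 without FMD replicate 4, and 11 in a fit without the FED libraries.

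**Figure D5:**
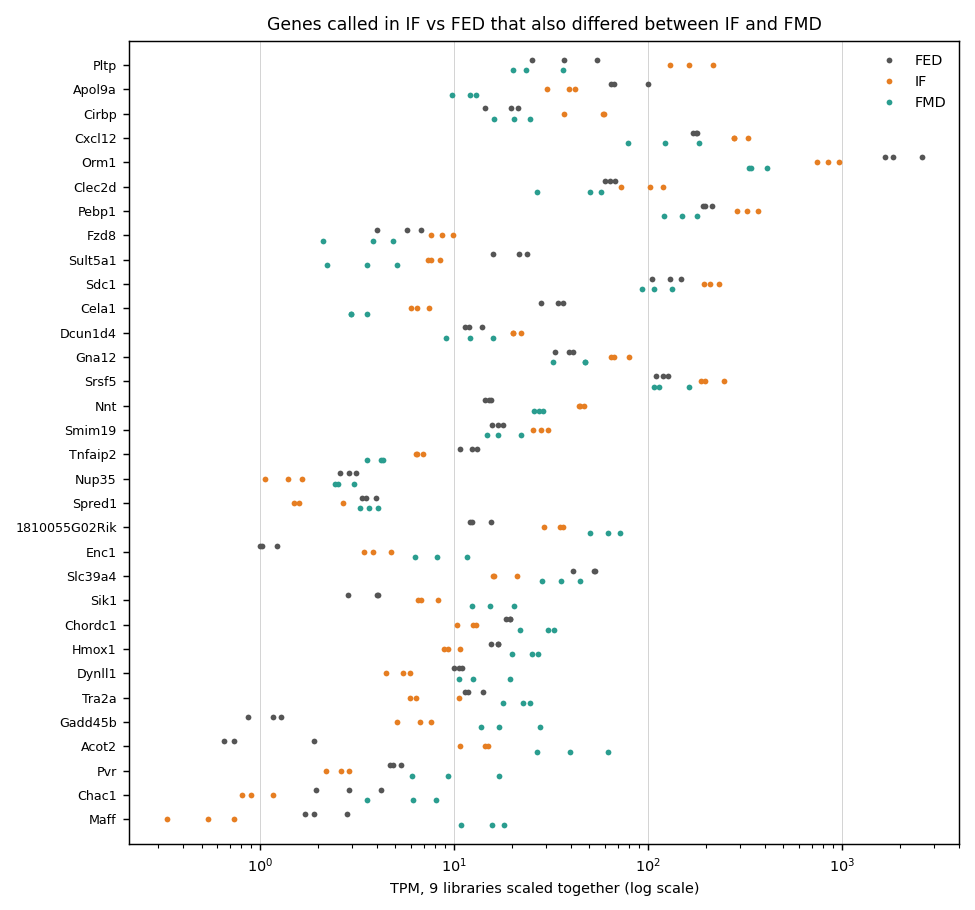
TPM of the 9 libraries scaled together, on a log axis (horizontal), for the 32 genes called in IF against FED that also differed between IF and FMD (vertical), ordered by that difference. Grey points are FED, orange IF and green FMD livers, and genes run from Pltp, highest in IF, to Maff, highest in FMD.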

How the data were processed

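Liver RNA of 3 FED, 3 IF and 3 FMD mice, grouped by the labels, was made by the authors into strand-specific oligo-dT libraries and sequenced on DNBSEQ. The authors deposited TPM values with 2 decimals for 5608 genes. Per the submitters' processing notes, mm39 and DESeq2 were used, and the aligner and annotation are not given in the sources used here. Genes outside the table were not analysed here, and some genes in it are not reported here.

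TPM was scaled by median ratios, converted to log2(TPM + 1) and fitted for 4583 genes (mean of at least 1 TPM) with limma 3.58.1 in R 4.3.3 (lmFit, eBayes with trend, two-sided moderated test, Benjamini-Hochberg adjustment). The limits were an adjusted p under 0.05 and a 1.5-fold change (0.585 on the log2 scale). IF and FMD were compared in a fit of all 9 libraries. Labels do not say whether mice shared a cage or batch. Simulated data had 200 changed genes and the spreads of the real genes, shuffled between genes. Of 2-fold changes in genes with a FED mean over 2 on the log2(TPM + 1) scale, 95.9% were called. Recovery at lower levels was not counted. Of all calls, 0.914% were of unchanged genes (1.51% with a shift of all genes by 0.322 added).

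Named genes were the 10 largest rises and falls, at most 4 lowest-p members and preset core members of 49 lists, and 6 genes for IF against FMD. Other genes printed, such as Abhd5, Acly, Acsl1, Cirbp, Got1, Hmgcs1 and Selenbp1, did not follow this rule. They were picked with their values seen, also where their paragraph does not say so. The 4 added lists were likewise written after the values were seen. All members and lists were chosen with earlier results of these data known, and lists overlap. Lists were counted, not tested. Promoters were the 250 bases before RefSeq starts of GRCm38.p6. Alternatives covered scaling, pseudocount, filters, thresholds, trend, replicate block, all 9 libraries, robust variances and each library left out. Python 3.11.15 was used for tables (pandas 2.3.3, numpy 2.4.6) and plots (matplotlib 3.10.9).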

Additional observations from a re-analysis of the deposited data

How the results depend on the processing

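The number of genes called in IF against FED, 396, was within 1.5 times of that value with quantile normalization (397), a pseudocount of 0.1 (495), a filter at 5 TPM (309 of 3200 genes), no filter (402), no trend (396), all 9 libraries (333), robust variances, chosen after seeing the data (378), and an adjusted p under 0.01. With 1 library left out at a time it lay between 371 and 425, with 196 to 208 genes higher and 174 to 217 lower. Without scaling, 612 genes were called, 519 higher and 93 lower. With no fold limit there were 1360, 681 higher and 679 lower, and with a limit of 2-fold there were 138, 71 higher and 67 lower. Of 128 named genes that were called, 99 stayed called under each of the 15 alternatives in which they were tested, 29 lost the call under at least 1 and 0 changed direction. Among the 29, Irf7, Insig2, Asns, Acaca, Alg3 and Atpif1 lost it under 3 or more, and Hspa5, Chordc1, Sec23b, Pold2 and Tars2 without scaling and without IF replicate 2. Orm2 and Srebf1 lost it with robust variances, and Cdkn1a, Dbp, Cyp51 and Cth with all 9 libraries. The cause was not tested.

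For genes called in IF against FED that also differed between IF and FMD, 32 became 55 without scaling and 11 without the FED libraries, and 7 to 78 with 1 library left out.

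Replicate numbers occur in FED and IF alike, but same-numbered libraries deviated from their group means with correlations of 0.174, 0.0494 and 0.00142, and FED replicate 2 correlated better with IF replicate 3 (0.103) than with its own number, so the numbers were not taken as pairs. With the replicate block 400 genes were called, 202 higher and 198 lower, of which 395 were shared with the 396. Depth is unknown, so values under about 1 TPM have no counting error attached, and the table holds part of each library.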
